A study of Mus musculus with 6 samples.

Results

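On chromosome 3 of the mouse, 4 neighbouring long non-coding RNA (lncRNA) features held more reads in macrophages kept in extract of an enoxaparin bone cement than in macrophages kept in extract of plain cement. They are NONMMUT111071.1, NONMMUT042996.2, NONMMUT111072.1 and ENSMUST00000193978, which is the transcript 5430433H01Rik. They are 4 of 24817 listed features and span 10559 bp, from 51572289 to 51582847 as the deposited table lists them (build mm10 per the submitters' processing notes). The features were chosen by their identifiers because their reads differed between the groups, so that difference is described below and not tested. The cells were RAW264.7, an established mouse macrophage line that came from a virus-induced tumour, stimulated with lipopolysaccharide (LPS, a bacterial cell-wall component) for 24 h. The medium was then replaced by an extract of polymethyl methacrylate (PMMA) cement with enoxaparin sodium, a low-molecular-weight heparin, in the LPS_ES_PMMA group (3 libraries), and by an extract of PMMA cement in the LPS_PMMA group (3 libraries). LPS was thus shared by both groups, and no library of cells without LPS was used here. The titles and treatment labels of the second group name PMMA, while its descriptions and the column names of the table name LPS only. Total counts over all listed features ran from 1123551 to 3261653 in LPS_ES_PMMA and from 2877523 to 3697638 in LPS_PMMA. The labels do not say whether replicate libraries were grown as separate cultures, so p-values measure the spread between these libraries, which may be technical.

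LncRNAs are transcripts that are not translated into protein; some act on the transcription of the genes beside them, and many have no described role. The catalogues that list them contain many single-exon transcripts from stretches between genes, whose status as separate RNAs is often unsettled. GENCODE gives 5430433H01Rik (ENSMUSG00000104075, plus strand) the class TEC, its label for transcripts that still await experimental evidence. No function was known for any of the 4 features from the sources used here. The nearest other gene of the annotation, Gm38334 (ENSMUSG00000104001, minus strand, 51571111 to 51571423), is a processed pseudogene, that is, a copy of a spliced messenger RNA in the genome. The deposited table lists NONMMUT111071.1 as bidirectional to it. None of the 4 features overlaps Gm38334, which ends 865 bp before the first of them. Its sequence matched that of 27 other transcripts of GENCODE M21, all within bases 8 to 299 of Gm38334. The longest alignment, with Gm44254, had 307 positions with gaps counted, at 72.0% identity.

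The last 300 bases of 5430433H01Rik are shown because beyond this transcript the listed features held almost no reads (GRCm38, chr3:51582548-51582847, plus strand, 5′ to 3′). The capitals mark AATAAA, the hexamer that most often signals the cleavage and polyadenylation of messenger RNAs.
5430433H01Rik (ENSMUST00000193978): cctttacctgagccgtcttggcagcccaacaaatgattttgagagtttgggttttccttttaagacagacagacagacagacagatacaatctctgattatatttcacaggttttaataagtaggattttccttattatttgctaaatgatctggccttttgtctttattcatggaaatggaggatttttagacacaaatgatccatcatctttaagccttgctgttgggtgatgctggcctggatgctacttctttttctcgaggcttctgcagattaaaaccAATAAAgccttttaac
The hexamer lay 10 bases before the annotated 3′ end. Searched on both strands, it was found once on each strand of these 300 bases. Among GENCODE M21 transcripts of at least 200 nt, the last 40 bases held AATAAA in 27.1% of all transcripts, in 39.4% of protein-coding ones and in 20.9% of TEC ones. The first 76 printed bases lie within NONMMUT111072.1 too, and the last 68 lie within NONMMUT113242.1, a feature with almost no reads. The whole transcript has 542 nt with 37.1% G and C. It matched 35 other GENCODE transcripts, all within its bases 300 to 336, a run of CAGA repeats, and over at most 32 nt, so no near-identical copy of it was found among annotated transcripts. Whether the counted reads carry this sequence was not tested, since the table holds counts and no reads. The other members have no sequence shown here.

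NONMMUT111071.1 (51572289 to 51573158, 870 nt) is the first of the features. It held 138, 57 and 86 reads in LPS_ES_PMMA 1, 2 and 3, against 17, 25 and 41 reads in LPS_PMMA 1, 2 and 3. As CPM, the counts per 1e+06 counts of the library total scaled by edgeR's TMM factors, that was 29.9 ± 2.59 CPM in LPS_ES_PMMA and 10.8 ± 3.31 CPM in LPS_PMMA (SD, n = 3 each). In bulk RNA, a change in the share of cells that carry an RNA and a change in its amount per cell cannot be told apart. The groups did not overlap, and its log2 fold change of 1.46 (SE 0.29) was the smallest of the 4.

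NONMMUT042996.2 (51573472 to 51576404, 2933 nt) starts 313 bp further on and is listed as intergenic. It held 480, 213 and 296 reads in LPS_ES_PMMA, against 49, 82 and 100 reads in LPS_PMMA. Its level was 105.9 ± 8.23 CPM in LPS_ES_PMMA and 30.2 ± 6.02 CPM in LPS_PMMA (SD, n = 3 each), a log2 fold change of 1.81 (SE 0.26). The lowest LPS_ES_PMMA library, at 97.8 CPM, lay well above the highest LPS_PMMA library, at 35.4 CPM.

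NONMMUT111072.1 (51579404 to 51582623, 3220 nt), also intergenic, follows after a gap of 2999 bp with no listed feature. It was the most abundant of the 4, with 610, 220 and 484 reads in LPS_ES_PMMA, against 76, 95 and 149 reads in LPS_PMMA. Its level was 138.1 ± 26.0 CPM in LPS_ES_PMMA and 42.0 ± 9.29 CPM in LPS_PMMA (SD, n = 3 each), a log2 fold change of 1.72 (SE 0.28). Within LPS_ES_PMMA it varied most of the 4 in CPM, and its second library was the lowest at 109.2 CPM.

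ENSMUST00000193978, 5430433H01Rik (51582306 to 51582847, 542 nt), is the shortest feature and shares 318 bases, 58.7% of its length, with NONMMUT111072.1. It held 68, 27 and 49 reads in LPS_ES_PMMA, against 6, 11 and 16 reads in LPS_PMMA. Its level was 15.3 ± 1.60 CPM in LPS_ES_PMMA and 4.27 ± 1.39 CPM in LPS_PMMA (SD, n = 3 each), a log2 fold change of 1.81 (SE 0.33). The rule by which the authors assigned reads of the shared bases is not known, so these neighbours are not separate measurements.

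**Figure D1:**
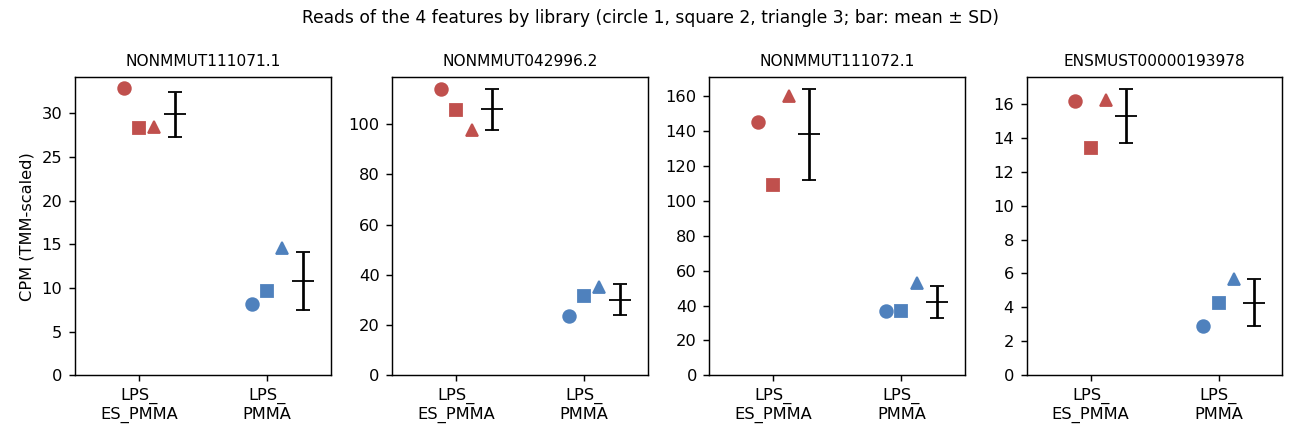
Level of each of the 4 features in CPM (TMM-scaled), with 1 point per library, LPS_ES_PMMA on the left and LPS_PMMA on the right, and the mean ± SD of 3 libraries beside the points. In all 4 panels every LPS_ES_PMMA library lies above every LPS_PMMA library, and LPS_PMMA 3 is the highest of its group.

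All 4 features passed the filter on low counts, and most reads of each were in LPS_ES_PMMA. In all 4 the groups did not overlap and LPS_ES_PMMA was higher. That was the pattern they were picked for; over all tested features it occurred in 16.2%, and the opposite one in 14.6%. A log2 fold change above 0 occurred in 51.7% of all tested features, and one of at least 1.5, which 3 of the 4 features had, in 5.73%. Of 8873 tested features 2.18% were called higher in LPS_ES_PMMA and 2.58% lower (edgeR's quasi-likelihood test, Benjamini-Hochberg adjusted p under 0.05), and the median log2 fold change was 0.03. The authors' deposited table gives log2 fold changes of 1.85 to 2.21 for the 4 features. It marks each as UP, although its q-value for NONMMUT111071.1 is above 0.05. The deposited fold changes are log2 ratios of the mean FPKM (reads per kilobase of feature and per 1e+06 reads of a library total) and do not use TMM factors.

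**Figure D2:**
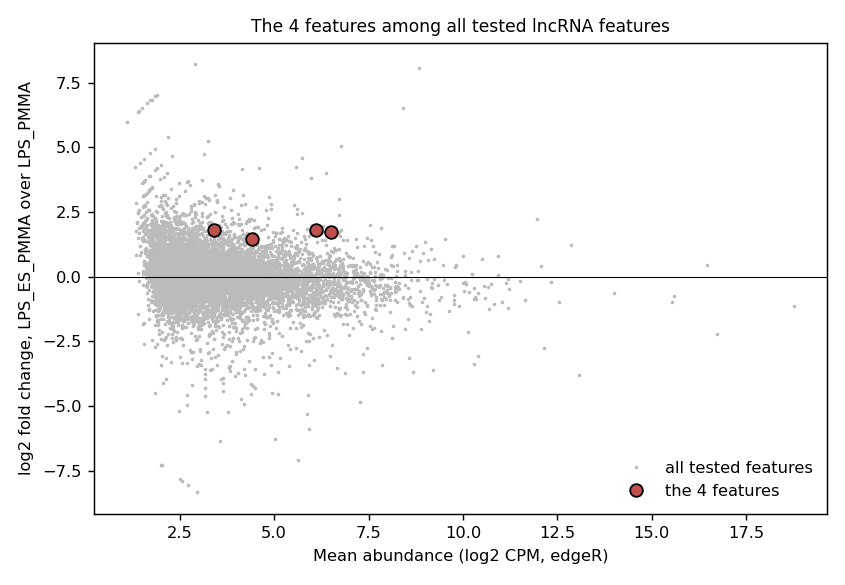
Fold change (log2, LPS_ES_PMMA over LPS_PMMA) against mean abundance (log2 CPM) for the 8873 tested features in grey, with the 4 chromosome 3 features in red. The 4 features have log2 fold changes between 1.46 and 1.81, and grey points lie above and below them.

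Summed, the 4 features held 1296, 517 and 915 reads in LPS_ES_PMMA, against 148, 213 and 306 reads in LPS_PMMA. That was 308.4, 256.7 and 302.2 CPM in LPS_ES_PMMA, against 71.3, 82.2 and 108.3 CPM in LPS_PMMA. The lowest LPS_ES_PMMA library thus stood above the highest LPS_PMMA library. The log2 fold change of the sum was 1.73. Without TMM factors it was 2.45, where the median of all tested features was itself 0.80, and with the library totals implied by the FPKM columns it was 2.12, with a median of 0.46. Relative to that median the sum was higher by 1.70, 1.65 and 1.66 under the 3 scalings.

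Within LPS_PMMA the summed level ran in the same order as the TMM factors of the libraries. Library 1 had a factor of 0.561 and the lowest level, library 2 a factor of 0.797, and library 3 a factor of 0.982 and the highest level. In LPS_ES_PMMA the factors were 1.29, 1.79 and 0.986. Every LPS_ES_PMMA factor thus lay above every LPS_PMMA factor, so factor and group cannot be separated over the 6 libraries. Only LPS_ES_PMMA 3 and LPS_PMMA 3 had close factors. Their summed levels were 302.2 CPM and 108.3 CPM, a pair with 1 library of each group. The part of library composition in the difference was not tested.

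**Figure D3:**
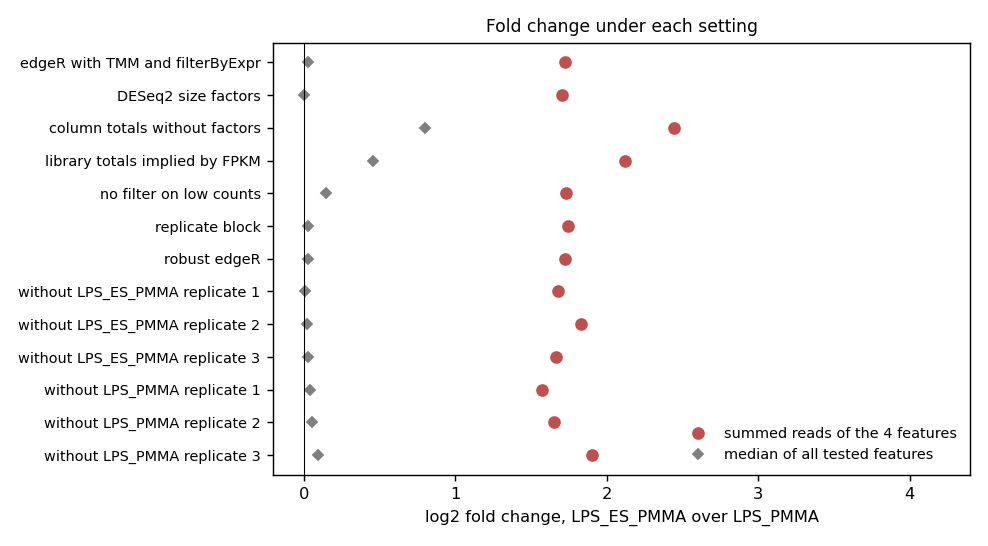
Log2 fold change (LPS_ES_PMMA over LPS_PMMA) of the summed reads of the 4 features, as circles, and the median of all tested features, as diamonds, under each scaling, filter and fit and with each library left out. The circles lie between 1.57 and 2.45, and the 2 scalings without TMM or DESeq2 factors move circles and diamonds in the same direction.

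The 4 features stood in the same order of read share in all libraries, while the shares varied between libraries of the same group. NONMMUT111072.1 took 47.1%, 42.6% and 52.9% of their summed reads in LPS_ES_PMMA, against 51.4%, 44.6% and 48.7% in LPS_PMMA. The smallest sample behind such a share was LPS_PMMA 1 with 148 reads, where the 95% Wilson interval of the 51.4% ran from 43.4% to 59.3%. The intervals of LPS_ES_PMMA 2 (38.4% to 46.9%) and LPS_ES_PMMA 3 (49.7% to 56.1%) did not overlap. Those of NONMMUT042996.2 in the same libraries (37.0% to 45.5% and 29.4% to 35.4%) did not overlap either, so these replicates differed by more than counting error. NONMMUT042996.2 took between 32.3% and 41.2% over the 6 libraries, NONMMUT111071.1 between 9.40% and 13.4%, and 5430433H01Rik between 4.05% and 5.36%. For each feature the range over LPS_ES_PMMA overlapped the range over LPS_PMMA, except that every LPS_PMMA library had a higher share of NONMMUT111071.1 than every LPS_ES_PMMA library. No molecular identifiers are described, so reads may be copies of 1 molecule and the intervals are those of counting error alone.

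The shares of listed length were 11.5% for NONMMUT111071.1, 38.8% for NONMMUT042996.2 and 42.6% for NONMMUT111072.1. The read shares of NONMMUT111071.1 and NONMMUT042996.2 ran from below to above these values, and that of NONMMUT111072.1 from about its value upward. 5430433H01Rik had 7.16% of the listed length, and its read share lay below that in 6 of 6 libraries. Within a library the highest FPKM was 1.46 to 1.66 times the lowest in LPS_ES_PMMA and 1.45 to 2.13 times in LPS_PMMA. 5430433H01Rik had the lowest FPKM in 6 of 6 libraries. Across the 6 libraries the log2 CPM of any pair of the 4 features had a Pearson correlation of 0.967 to 0.991, a description of 6 libraries in which the 2 groups lie apart.

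**Figure D4:**
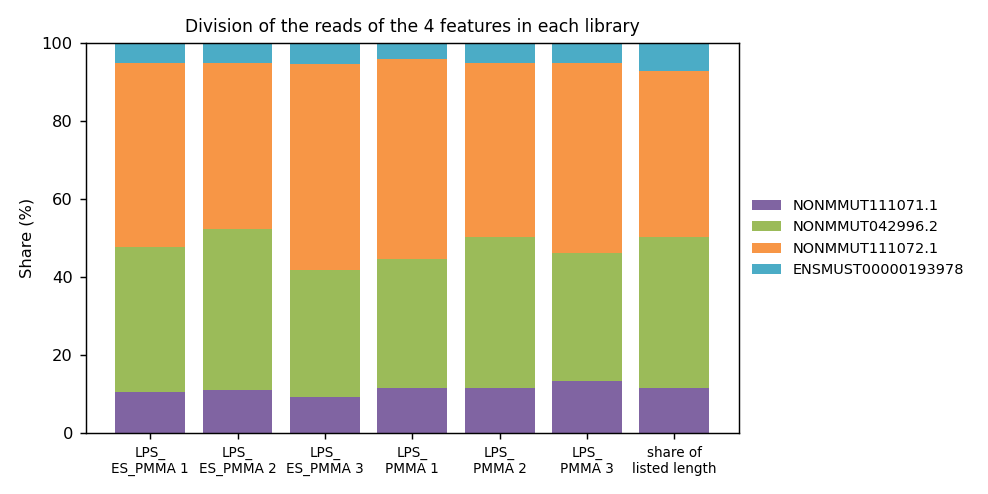
Share (%) of the summed reads of the 4 features that each of them took, per library, with the share of their summed listed length in the last bar. NONMMUT111072.1 takes 42.6% to 52.9% and 5430433H01Rik 4.05% to 5.36% in every library.

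In FPKM, which can be compared between features, the 4 stood between 20.1 and 42.1 in LPS_ES_PMMA libraries and between 2.47 and 12.2 in LPS_PMMA libraries. NONMMUT111072.1 was the highest on average, with 42.1, 27.6 and 34.9 FPKM in LPS_ES_PMMA, against 5.27, 7.11 and 11.9 FPKM in LPS_PMMA. NONMMUT042996.2 and NONMMUT111071.1 followed in LPS_ES_PMMA with 29.7 ± 6.49 and 28.2 ± 6.35 FPKM (SD, n = 3), a difference smaller than their spread. 5430433H01Rik came last with 20.1 to 27.9 FPKM in LPS_ES_PMMA, against 2.47, 4.89 and 7.62 FPKM in LPS_PMMA. In LPS_ES_PMMA libraries each of the 4 lay above at least 95.5% of all listed features in FPKM, and in LPS_PMMA libraries above 77.7% to 92.5%.

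The listed features on both sides held far fewer reads per length. Over all 6 libraries the 4 features held 418, 416, 507 and 327 reads per kb of their length, in the order of their positions. The other 4 listed features within 50 kb held between 5.40 and 11.5 reads per kb and did not pass the filter on low counts. They were chosen by position only, and in the fit without that filter none of them was called (smallest adjusted p from edgeR = 0.499, smallest unadjusted p = 0.152), where 0.701% of 24817 features were called.

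ENSMUST00000180404, the lncRNA 5031434O11Rik (ENSMUSG00000097885, plus strand, 51560035 to 51567117), lies 5171 bp before the interval. Its span overlaps the start of the lysine methyltransferase gene Setd7 (minus strand, 51515319 to 51560879). The reads are those of the lncRNA feature. This feature held 7, 2 and 8 reads in LPS_ES_PMMA, against 10, 11 and 5 reads in LPS_PMMA. Its log2 fold change was -0.95 (SE 0.61), with an adjusted p of 0.499 from edgeR in that fit, and the groups overlapped. This neighbouring lncRNA was therefore not seen to move with the 4 features, at a depth of 43 reads in all.

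NONMMUT113242.1 (51582780 to 51583520) shares 68 bases with 5430433H01Rik and continues past its end. It held 2, 0 and 1 reads in LPS_ES_PMMA, against 0, 0 and 1 reads in LPS_PMMA, where 3 reads in 1 library equal 0.714 to 1.49 CPM. NONMMUT113244.1 (51589861 to 51590642) held 2, 2 and 1 reads in LPS_ES_PMMA, against 1, 2 and 0 reads in LPS_PMMA. NONMMUT111073.1 (51590818 to 51592234) held 3, 3 and 2 reads in LPS_ES_PMMA, against 0, 0 and 2 reads in LPS_PMMA. A difference between groups was not detectable at this depth in any of these 3 features. Leaving out 1 library in turn gave NONMMUT111073.1 log2 fold changes between 1.17 and 4.41, with adjusted p from edgeR between 0.448 and 0.773. The strand setting of the counting is not known.

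**Figure D5:**
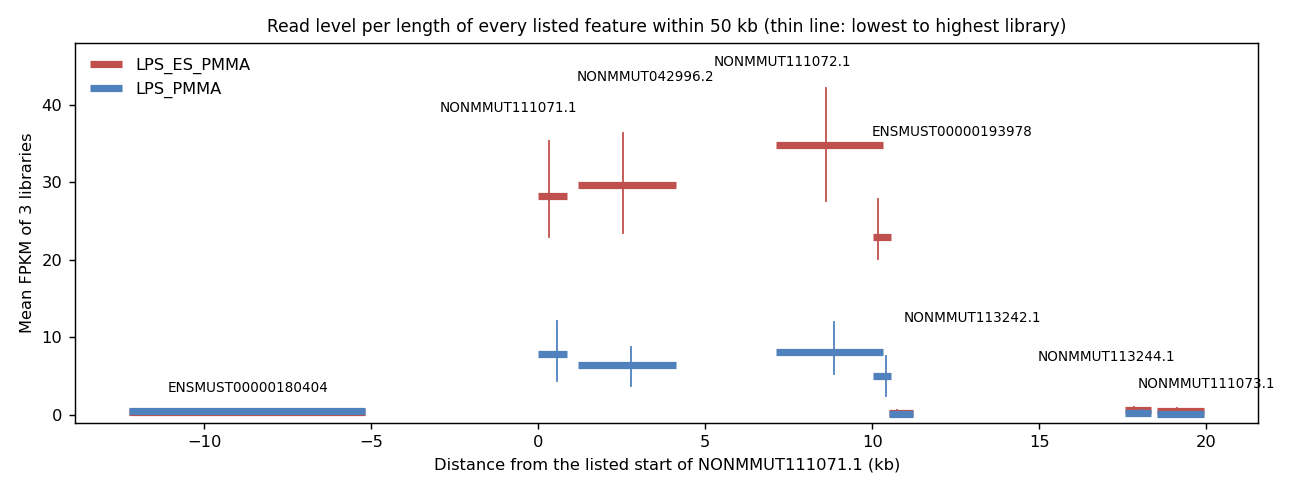
Mean FPKM of 3 libraries for every listed feature within 50 kb, drawn over its listed extent as distance in kb from the start of NONMMUT111071.1, LPS_ES_PMMA in red and LPS_PMMA in blue, with thin lines from the lowest to the highest library. The 4 features lie between 20.1 and 42.1 FPKM in LPS_ES_PMMA libraries, and the features on both sides lie near 0 in both groups.

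At a distance of up to 500 kb, chosen after the values had been seen, the table listed 28 other features, and 0 of them reached the mean FPKM of the lowest of the 4 features over the 6 libraries (14.0). Of these 28, 13 were tested, 1 rose and none fell, where 2.18% of all tested features were called higher and 2.58% lower. The feature that rose was Gm38246 (ENSMUST00000194318, 51103660 to 51105170, intergenic), 467.1 kb before the interval, with 24, 13 and 20 reads in LPS_ES_PMMA, against 2, 3 and 3 reads in LPS_PMMA. Its log2 fold change was 2.50 with an SE of 0.40 (edgeR, adjusted p = 0.0186). That call was lost with any 1 of the 6 libraries left out, where its log2 fold change was 2.42 to 2.56 and the adjusted p from edgeR 0.0669 to 0.0949. The median log2 fold change of the 13 was 0.16, beside 0.03 over all tested features. The nearest tested feature on the far side, NONMMUT043009.2 in the transcriptional coactivator gene Maml3, lies 105.1 kb after the interval and did not pass (log2 fold change -0.52 with an SE of 0.42, edgeR adjusted p = 0.509). The nearest one before the interval, the intergenic Gm5103 (ENSMUST00000195545) at 186.0 kb, did not pass either (0.77 with an SE of 0.34, edgeR adjusted p = 0.235).

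Features tied to a list of 11 protein-coding genes of this part of chromosome 3 were read by the gene column or name of the table. Only 5 of the 11 genes had such features, and whether their reads come from the named genes was not tested. Of 23 such features 13 were tested, all tied to Elf2, Maml3 or Slc7a11. Of these 13, 1 was higher, none lower and 12 did not pass, where 4.76% of all tested features were called in either direction. Their median log2 fold change was -0.08. The one that rose, ENSMUST00000193524, lies in an intron of Slc7a11, the cystine transporter gene, more than 1 Mb from the interval (18.8 ± 4.86 CPM in LPS_ES_PMMA and 4.18 ± 0.926 CPM in LPS_PMMA, SD, n = 3 each, adjusted p from edgeR = 0.0175). With any 1 of the 6 libraries left out, 0 features of this list were called, and ENSMUST00000193524 had a log2 fold change of 1.96 to 2.28 with an adjusted p from edgeR of 0.0573 to 0.0834. The other tested features of Slc7a11, looked up after their values were seen, had lower levels in LPS_ES_PMMA without passing. NONMMUT042943.2 held 90.4 ± 40.4 CPM in LPS_ES_PMMA and 248.3 ± 41.0 CPM in LPS_PMMA (adjusted p from edgeR = 0.0675). The features within Maml3 did not pass, the most abundant being Gm37465 (ENSMUST00000192845) with 32.5 ± 2.08 CPM in LPS_ES_PMMA and 27.6 ± 2.55 CPM in LPS_PMMA (log2 fold change 0.23 with an SE of 0.23, edgeR adjusted p = 0.607). Setd7 and Mgst2 had no feature tied to them through the gene column or the feature name.

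Positions were compared with the GRCm38 (mm10) gene models. Of 2533 Ensembl transcripts found in GENCODE M21, 2517 had the same start and end as in the table, 5430433H01Rik included. On that build the interval lies between Setd7, whose start is 11409 bp before it, and Mgst2 (ENSMUSG00000074604, plus strand, 51660360 to 51682677), 77512 bp after it. Mgst2 encodes a microsomal glutathione S-transferase that can join glutathione to the leukotriene precursor LTA4. In GENCODE M21, 5430433H01Rik was the only gene over the interval, and RefSeq's gene table for GRCm38.p6 had 0 genes there. Gene models of GRCm39 were not used here.

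Transcripts assembled by the authors met these gene models most often at a displacement. Of 43 assembled transcripts in a stretch of chromosome 3 that starts at 88 Mb, beyond the interval, 20 met a coding exon boundary within 10 bp when moved by 92692 to 92694 bp. That stood against 8 at the next most frequent displacement. Without displacement it was 0, but only transcripts classed as lncRNA are listed, so few matches to coding exons could be found there. The counts of annotated intergenic features in the same stretch showed a like displacement. Their mean log2(FPKM + 0.1) was higher by 1.76 in the 55 of 115 features that covered a coding exon after a move of 92800 bp than in the others. That was the largest difference among the moves of up to 200 kb in either direction that could be compared. The largest difference at moves well away from 92800 bp was 1.44. Without a move too few features covered a coding exon to compare. In the stretch that holds the interval, 40 to 70 Mb, only 16 transcripts were assembled. At most 4 of them met a boundary within 10 bp at any 1 displacement, against 3 at the next most frequent displacement. The lowest displacement with 4 was 92569 bp and the highest 92589 bp. The 4 were not the same transcripts at both: MSTRG.35817.1 was among them at 92569 bp and MSTRG.35356.1 at 92589 bp. Without displacement it was 0 in this stretch too, with the same limit. Exact matches at 92579 bp came from 3 transcripts that lie several Mb beyond the interval. The assembled transcripts nearest before the interval had no exact match at 92579 bp. For them, any exon boundary within a narrow preset window around such a displacement gives a value. A nearby value alone therefore does not establish a displacement. For MSTRG.35356.1 (51345799 to 51349475) the values were 92540 bp with its start and 92588 bp with its stop, which is not the same displacement. The value of its stop lay within 10 bp of 92579 bp, the tolerance of the counts above, and that of its start did not. For MSTRG.35357.1 (51367505 to 51368672) the value was 92605 bp with its stop. The levels of 65 annotated features in that stretch gave no such reading, with the largest difference at -156200 bp and an almost equal one elsewhere. No assembled transcript was listed within 50 kb of the interval, so the displacement at the interval itself was not measured.

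If the reads of the interval were displaced by 92579 bp, all 4 features would lie inside the span of Mgst2. NONMMUT111071.1 and NONMMUT042996.2 would then cover 0 exon bases of that gene, NONMMUT111072.1 131 bases (4.07% of its length) and 5430433H01Rik 291 bases (53.7%). NONMMUT113242.1 would lie wholly on an Mgst2 exon and NONMMUT113244.1 with 224 bases on one, and these held 4 and 8 reads over the 6 libraries. Whether the counted reads come from Mgst2, from the listed interval or from elsewhere was not tested. The same holds for the other features that are named here by a gene, since that tie follows their listed position or name.

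Because Mgst2 is a neighbour, 28 genes of glutathione and leukotriene metabolism were looked up, of which 8 had features tied to them. Of 24 listed features 10 were tested, all tied to Ptges, Gss, Slc7a11, Nfe2l2 or Keap1. Of these 10, 1 rose (the Slc7a11 feature given above), none fell and 9 did not pass, with a median log2 fold change of -0.05. Over all tested features 4.76% were called in either direction and the median was 0.03. Of 31 genes of lysine methyltransferases and related enzymes, the class of Setd7, 17 had features tied to them. These features numbered 50, of which 21 were tested and 0 were called by edgeR, beside the same 4.76%. Their median log2 fold change was 0.39. The most abundant, MSTRG.9006.1, tied to Smyd4, held 132.4 ± 32.4 CPM in LPS_ES_PMMA and 281.5 ± 42.8 CPM in LPS_PMMA without passing (adjusted p from edgeR = 0.0729). NONMMUT010711.2, also tied to Smyd4, held 83.3 ± 15.4 CPM in LPS_ES_PMMA and 43.9 ± 4.74 CPM in LPS_PMMA (adjusted p from edgeR = 0.0863), so that 2 features of 1 gene had levels in opposite directions. NONMMUT017655.2, tied to the histone methyltransferase gene Nsd1, held 64.7 ± 2.72 CPM in LPS_ES_PMMA and 66.1 ± 3.43 CPM in LPS_PMMA (adjusted p from edgeR = 0.953).

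By pattern over the 6 libraries, the tested features most like the summed 4 were NONMMUT091639.1 on chromosome 13 in an intron of Aaed1, the intergenic NONMMUT084895.1 on chromosome 11, NONMMUT150657.1 on chromosome 6, bidirectional to the ISG15 protease gene Usp18, NONMMUT028811.2 on chromosome 17 in Ergic1, and Gm43099 (ENSMUST00000198943) on chromosome 3 in an intron of Sort1. The measure was Pearson's correlation of log2(CPM + 1), and the 5 values lay between 0.994 and 0.998. NONMMUT091639.1 held 93.3, 78.0 and 96.4 CPM in LPS_ES_PMMA, against 24.1, 29.7 and 35.8 CPM in LPS_PMMA. Over 6 libraries in 2 groups a high value needs little more than a like difference between the groups, and 194 of 8869 other features had a correlation above 0.95. The 5 features had fold changes of different sizes, from a log2 fold change of 1.58 for NONMMUT091639.1 to 4.22 for Gm43099.

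The labelled cell type could be checked only through lncRNA features tied to marker genes. Whether the reads of these features come from the marker genes was not tested. Of 11 macrophage markers 2 had listed features, summed to 32.8 to 45.6 CPM in LPS_ES_PMMA and 49.2 to 61.0 CPM in LPS_PMMA, and MSTRG.25685.1, tied to the macrophage receptor gene Adgre1, did not pass (adjusted p from edgeR = 0.238). Features tied to fibroblast markers summed to at most 1.65 CPM in LPS_ES_PMMA and 2.48 CPM in LPS_PMMA, and those tied to T and B cell markers to at most 1.65 CPM in LPS_ES_PMMA and 0.964 CPM in LPS_PMMA. NONMMUT096548.1, tied to the keratin gene Krt8, an epithelial marker, held 58.3 ± 6.60 CPM in LPS_ES_PMMA and 32.4 ± 1.77 CPM in LPS_PMMA (SD, n = 3 each, adjusted p from edgeR = 0.0881). No feature was tied to the neuron markers. The part of other cells in the level of the 4 features was not tested.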

How the data were processed

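The RNA of 6 samples was sequenced (SMARTER mRNA kit, per the labels' protocols). The deposited table lists lncRNA transcripts with counts and FPKM per library. The deposited counts are whole numbers of reads per feature. The FPKM values are the authors' own, per the file headers, and length times FPKM over count was constant within a library, which gives the implied library totals. The authors' deposited log2 fold changes equal the log2 ratio of their mean FPKM. Their deposited p-values and q-values are edgeR's, as the table's name says. No source used here names the aligner, the counter or the strand setting. There were 0 unassigned per-sample columns.

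Columns were tied to samples by titles and descriptions. Features were filtered with filterByExpr (minimum count 10, minimum total 15), scaled by TMM and compared with the quasi-likelihood test of edgeR 4.0.16 in R 4.3.3 without covariates; Benjamini-Hochberg adjustment ran over all 8873 tested features. CPM are counts per 1e+06 TMM-scaled counts. Standard errors were taken as the absolute log2 fold change divided by √F and are approximate. The fit was tested on simulated counts. The 4 summed features replaced their rows in a refit. Gene names were matched for 13687 of 13700 identifiers of the gene column in GENCODE M21 (release 21); blastn 2.17.0 (word size 11) searched its transcripts. Named features are the 4 members, listed features within 50 kb, the 5 most alike, and per list the called features or else the 3 most abundant; the other Slc7a11 features, those within 500 kb and those within Maml3 were chosen after their values were seen. The members and lists were chosen with earlier results of these data known. Alternatives were DESeq2 1.42.0, limma 3.58.1 on log2(FPKM + 0.1) and log2(FPKM + 1), other scalings, no filter, robust edgeR, a replicate block and leaving out each library.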

Additional observations from a re-analysis of the deposited data

How the results depend on the processing

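The summed reads of the 4 features stayed higher in LPS_ES_PMMA in all 12 alternatives run for them, with log2 fold changes of 1.57 to 1.90 when 1 library was left out, 2.45 with column totals without factors and 2.12 with library totals implied by FPKM. No alternative reversed any of the 4 features. The count of called features depended on the processing: 422 became 174 without the filter, 142 and 125 with limma on log2(FPKM + 0.1) and log2(FPKM + 1), and 50 to 136 when 1 library was left out; fewer samples or more tested features enter those fits, and the cause was not tested otherwise. Higher calls were 45.7% of calls with TMM, 81.6% with column totals and 72.1% with totals implied by FPKM.

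The replicate numbers of the titles did not pair the libraries (correlations of same-numbered deviations between -0.093 and -0.020, and 0 of 3 libraries closest to their own number); with a replicate block 41 features were called, and the summed log2 fold change was 1.74. Of features tied to neighbouring genes and to glutathione genes, 1 each was called with TMM, 0 each with the replicate block, 0 each with both limma fits, 2 each with robust edgeR, and 3 and 4 with DESeq2; 0 were called in every fit that left out 1 library. Of features tied to lysine methyltransferase genes, 1 was called with column totals, 1 with robust edgeR, 2 with DESeq2 and 0 to 1 with 1 library left out. Of the other listed features within 50 kb, 0 were called in all 14 alternatives, 0 to 0 with 1 library left out. For Gm38246 (ENSMUST00000194318) and ENSMUST00000193524, whose alternatives were added after seeing the data, the adjusted p ranged over 15 alternatives between 0.0165 and 0.105 and between 0.00187 and 0.0868. Depth limits the features within 50 kb, which held 4 to 43 reads in all.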
